A study of Homo sapiens with 33 samples.

Results

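The expression of 10 genes that set passage from G1 into S phase was described across 11 human high-grade serous ovarian carcinoma lines. The genes were the E-type cyclins CCNE1 and CCNE2, the D-type cyclins CCND1, CCND2 and CCND3, the kinases CDK2 and CDK6, the inhibitors CDKN2A and CDKN1B, and the retinoblastoma gene RB1. They were taken by symbol from tables of 29744 genes, and all 10 were found. The rule used their symbols and no level or test.

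D-type cyclins bind CDK4 or CDK6 and begin the phosphorylation of the RB1 protein, which otherwise holds E2F transcription factors inactive. Released E2F drives the genes of DNA synthesis, CCNE1 and CCNE2 among them, and cyclin E with CDK2 completes the phosphorylation of RB1. The CDKN2A product p16INK4a blocks CDK4 and CDK6, its second product p14ARF stabilises p53, and the CDKN1B product p27Kip1 blocks cyclin E-CDK2. High-grade serous ovarian carcinoma is known for copy gain of CCNE1, for loss of RB1 in some tumours, and for strong p16 staining in many.

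RNA sequencing of 33 libraries covered 4 platinum-sensitive lines and 7 platinum-resistant lines in 4 families, with 3 replicates per line. OVCAR3 and OVCAR4 are established sensitive lines, and each gave rise to a ResA and a ResB line, selected independently by brief cisplatin pulses of rising dose with recovery in between. The PEA and PEO lines were derived from patients: PEA1 and PEO1 are sensitive, and PEA2, PEO4 and PEO6 are the resistant lines of the same patients. The labels name the line and the replicate, and the platinum response of each line came from the text of the study. The selected lines were not kept in cisplatin, so drug is not part of any group. Each resistant line is 1 selected population. Resistant lines of one family share the 3 libraries of their sensitive line, and the OVCAR3 and OVCAR4 media held insulin while that of the PEA and PEO lines did not, so medium and family cannot be told apart. Nothing says that replicates were separate cultures, so p-values measure only the spread between these samples, which may be technical. In bulk RNA, fewer cells of a type and less RNA per cell cannot be told apart.

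Total expected counts per library ran from 1.81e+07 to 4.34e+07, with a median of 3.06e+07. All 33 libraries had a library of their own line as nearest neighbour. All 8 markers of epithelial and serous cells (PAX8, WT1, EPCAM, KRT7, KRT8, KRT18, MUC16 and CDH1) averaged at least 1 scaled TPM, with sums from 365 to 8945 that were lowest in PEA1, although MUC16, WT1 and CDH1 fell to 0.0252, 0.348 and 0.318 in single libraries. Summed markers reached 96.7 for fibroblasts, in PEA1 (3 of 7 at a mean of 1 or more), 60.1 for leukocytes (2 of 6) and 11.7 for endothelium (0 of 5), and CD3E never passed 3 counts. The share of counts on mitochondrial rRNA ran from 1.12% to 14.8% and differed between replicates of one line. Replicate 3 of OVCAR3 ResB, at 1.12%, stood apart from replicates 1 and 2 of that line, at 5.97% and 8.88%. In OVCAR4 it was 5.18%, 14.8% and 12% in replicates 1 to 3, against 9.23%, 2.02% and 2.09% in OVCAR4 ResA and 13.1%, 2.47% and 2.39% in OVCAR4 ResB.

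Levels below are scaled TPM, the deposited TPM (transcript abundance per library, corrected for gene length) divided by a median-of-ratios factor over all 33 libraries, so that genes can be compared within and between libraries. Differences are DESeq2 log2 fold changes on counts with their standard errors (SE), and a gene is called changed where the Benjamini-Hochberg adjusted p over all genes was under 0.05.

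**Figure D1:**
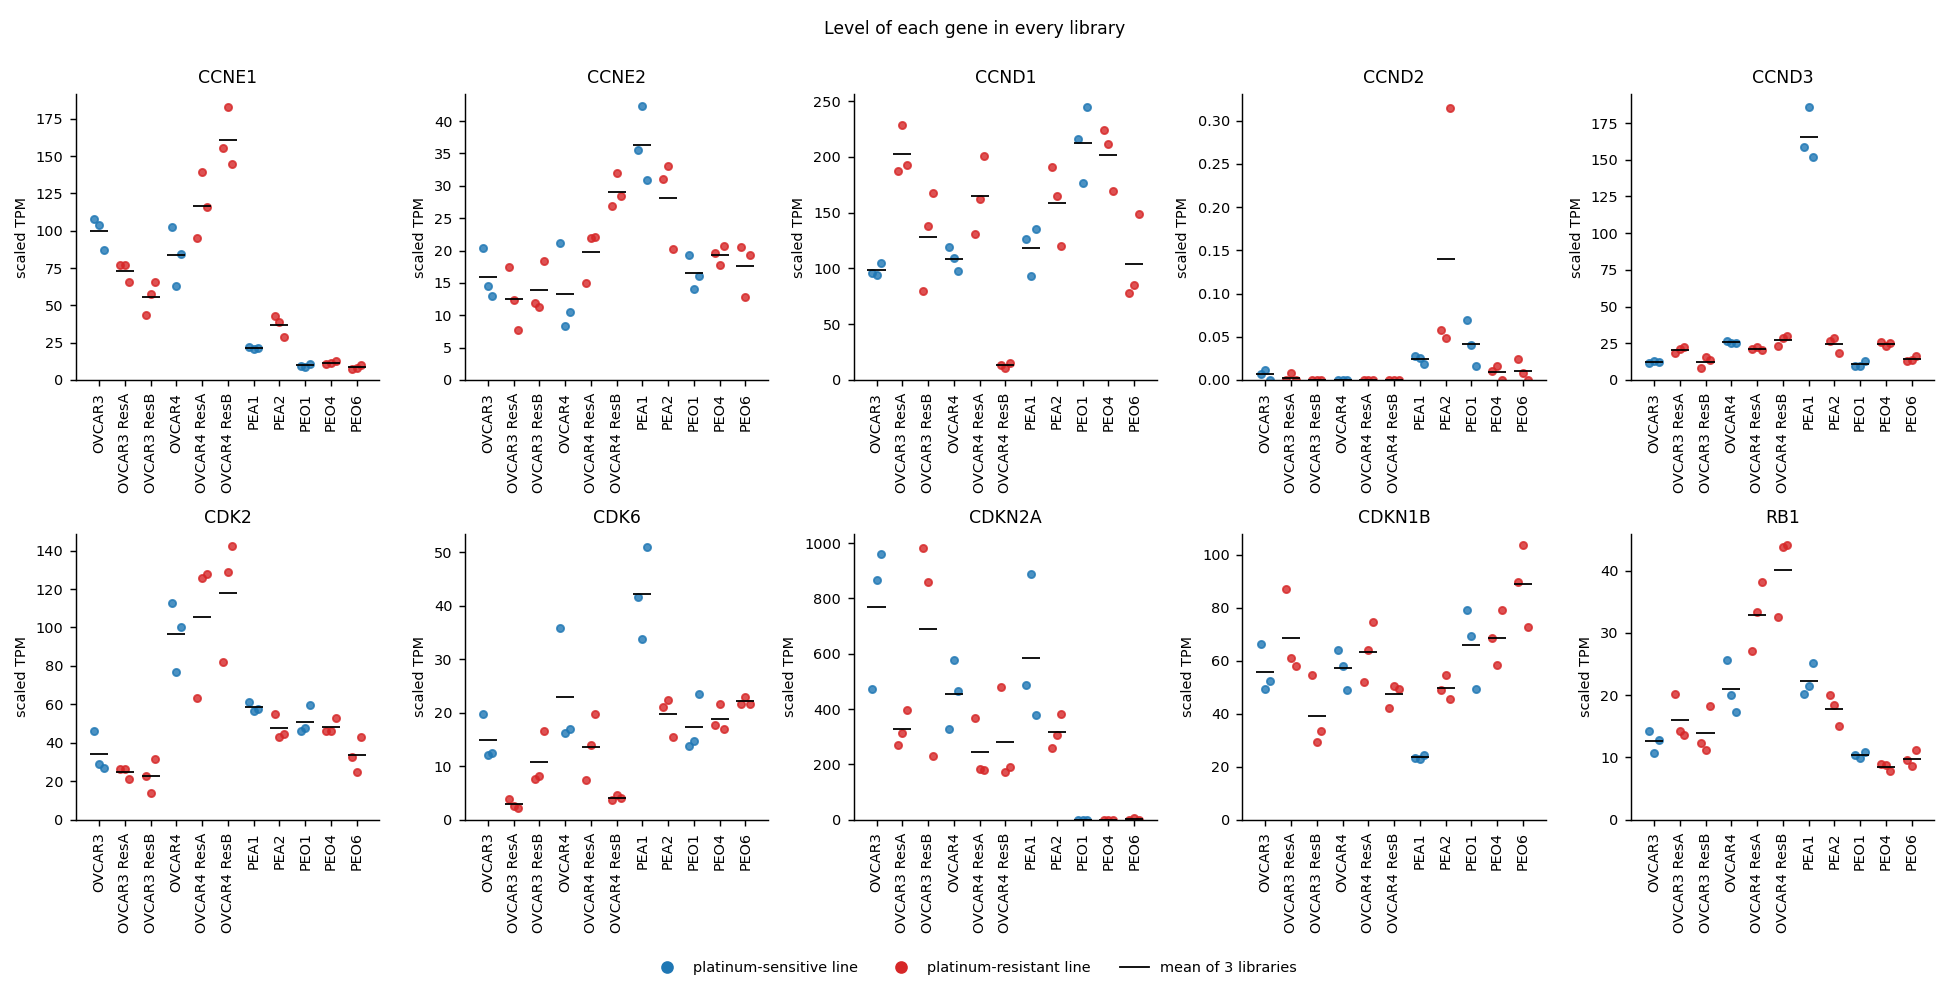
Scaled TPM (vertical axes, one scale per gene) of the 10 genes in each of the 33 libraries, grouped by line on the horizontal axes, with blue points for sensitive lines, red points for resistant lines and a bar at the mean of 3 libraries. CCNE1 is high in the OVCAR3 and OVCAR4 families, CCND3 in PEA1, CDKN2A is at or near 0 in the PEO lines, and CCND1 is low in OVCAR4 ResB alone.

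CCNE1 encodes cyclin E1 and lies at chr19:29811991-29824312 (GRCh38.p14). Among the sensitive lines its level was high in OVCAR3 and OVCAR4. OVCAR3 had 108, 104 and 87.3 scaled TPM in replicates 1 to 3, and OVCAR4 had 103, 63.3 and 84.8. PEA1 had 22, 20.9 and 21.1, and PEO1 had 9.66, 8.92 and 11. Every OVCAR3 and OVCAR4 library therefore lay above every PEA1 and PEO1 library. CCNE1 was higher in OVCAR3 than in PEO1 by 3.32 ± 0.21 on the log2 scale (SE, n = 3 against 3, DESeq2 adjusted p = 3.17e-54) and higher in OVCAR3 than in PEA1 by 2.18 ± 0.23 (adjusted p = 1.88e-20). The corresponding log2 differences of OVCAR4 were 3.05 ± 0.22 from PEO1 and 1.96 ± 0.24 from PEA1. OVCAR3 and OVCAR4 were not distinguished (0.22 ± 0.19, adjusted p = 0.325).

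Against their sensitive lines, the resistant lines had CCNE1 called in both directions. In the OVCAR3 family, ResA had 77.3, 77.1 and 65.4 scaled TPM and ResB had 43.7, 57.6 and 65.6, all below the 3 OVCAR3 libraries. In the OVCAR4 family, ResA had 95, 139 and 116 and ResB had 156, 183 and 145. All 3 OVCAR4 ResB libraries lay above OVCAR4, while 1 ResA library lay within its range. PEA2, at 43.1, 39.1 and 28.9, lay above PEA1 in every library. PEO4 (10.4, 11.2 and 12.8) and PEO6 (7.36, 7.87 and 9.99) overlapped PEO1. CCNE1 was called lower in OVCAR3 ResA (log2 -0.43 ± 0.11, adjusted p = 0.000261, but 0.0804 in one fit over all 33 libraries) and higher in OVCAR4 ResB (0.95 ± 0.34, adjusted p = 0.0331) and PEA2 (0.78 ± 0.25, adjusted p = 0.00506). The OVCAR4 ResB call was lost without replicate 2 (0.66, adjusted p = 0.638), without replicate 3 (1.04, adjusted p = 0.427) and with edgeR (adjusted p = 0.106), and the PEA2 call without replicate 1 (0.69, adjusted p = 0.231) or without replicate 2 (0.71, adjusted p = 0.0658). In OVCAR3 ResB the log2 difference of CCNE1 was -0.83 ± 0.34 (adjusted p = 0.129), and it was called when replicate 3 of OVCAR3 ResB was left out (-1.08, adjusted p = 0.00107) or the replicate block was (adjusted p = 0.0416).

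The window in front of the CCNE1 start is shown because CCNE1 had the widest range of line means among the cyclins and its start is rich in GC boxes, the letters GGGCGG on either strand, given in capitals. The 250 bases before the RefSeq start (GRCh38.p14, plus strand, chr19:29811741-29811990) hold 7 of them and are 81.2% G or C.
CCNE1 promoter: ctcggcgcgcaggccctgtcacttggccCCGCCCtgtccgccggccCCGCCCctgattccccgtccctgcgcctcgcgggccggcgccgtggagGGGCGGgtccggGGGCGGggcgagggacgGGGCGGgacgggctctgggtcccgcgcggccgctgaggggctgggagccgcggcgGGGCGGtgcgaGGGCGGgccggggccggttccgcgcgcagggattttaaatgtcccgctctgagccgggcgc

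Of 35116 RefSeq promoter windows of that length, 42.6% hold a GC box. No window of CCNE1 or of the 5 other genes with one (CCND3, CDK6, CDKN2A, CDKN1B and, at an internal start, RB1, 10 windows in all) held any of the 4 E2F-like strings searched on both strands (TTTCCCGC, TTTCGCGC, TTTGCCGC and TTTGGCGC), which 2.79% of all windows hold. The AP-1 letters TGACTCA, held by 4.2% of all windows, were absent from these 10. So was the TATA box, searched as TATAAA and held by 10.7% of windows. At these shares absence from 10 windows is not unusual. Bases after the start and inexact matches were not searched, so these genes may still hold such sites.

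The genes next to CCNE1 on chromosome 19 gave further values for the family split. Among the 5 nearest protein-coding genes on each side, POP4 averaged 257 scaled TPM in OVCAR3, 94.4 in OVCAR4, 39.5 in PEA1 and 32.3 in PEO1. URI1 averaged 409, 164, 89.2 and 90.4 in the same order. C19orf12, the nearest gene before CCNE1, averaged 66.5 in OVCAR3 and between 7.43 and 14.0 in the lines outside the OVCAR3 family. Against PEO1, 5 of 8 neighbours with an adjusted p were called higher in OVCAR3 and 2 lower, where 24.3% of all tested genes were higher. In OVCAR4 7 of 8 were called higher and 1 lower, where 22.6% of all tested genes were higher. Against PEA1, 4 of 7 were called higher and 1 lower in OVCAR3 (background 21.7% higher). OVCAR4 had 5 of 7 higher and 0 lower (background 20.7% higher). Neighbours are counted only with an adjusted p, but backgrounds, here and for neighbours below, count every tested gene and so run lower. Of genes with at least 10 counts in 3 libraries, 5206 of 15565 were higher in OVCAR3 and 4685 of 15000 in OVCAR4 against PEO1. Against PEA1 these were 4642 of 15569 and 4326 of 14953. UQCRFS1 averaged 80.1 scaled TPM in OVCAR3, against 453 in OVCAR4, 172 in PEA1 and 185 in PEO1. Within families the neighbours did not move with CCNE1 in each pair. In OVCAR3 ResA, 0 of 7 were called lower (background 19%) and 5 higher (18.2%), while CCNE1 fell. In OVCAR4 ResB, 0 of 7 were called in either direction by DESeq2 (background 13.7%), while CCNE1 was called higher. In PEA2, 3 of 8 were called higher (background 18.7%), PLEKHF1 (log2 2.26) among them, and 1 lower (19.1%), while CCNE1 rose. In OVCAR3 ResB, where CCNE1 was not called, 2 of 7 were called lower, C19orf12 (-1.13) and POP4 (-0.99). There 584 of 21720 tested genes were lower.

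CCNE2, which encodes cyclin E2, varied less than CCNE1. Line means ran from 12.5 ± 4.90 scaled TPM in OVCAR3 ResA to 36.3 ± 5.79 in PEA1 (SD, n = 3), a range of 2.90-fold against 19.2-fold for CCNE1. When the 11 lines were ordered by level, all 10 pairs of neighbouring lines overlapped, against 6 for CCNE1. Such overlap was common, with 9 of 10 for CCND1, CDK2, CDK6, CDKN2A, CDKN1B and RB1. OVCAR4 had 21.1, 8.41 and 10.5 scaled TPM and OVCAR4 ResB had 26.9, 32.0 and 28.4, with no overlap, and CCNE2 was called higher (1.22 ± 0.41, adjusted p = 0.0199). That CCNE2 call was lost without replicate 2 (0.85, adjusted p = 0.532), without replicate 3 (1.11, adjusted p = 0.469) and with edgeR (adjusted p = 0.106). CCNE2 was called lower in OVCAR3 ResA (-0.38 ± 0.16, adjusted p = 0.0413), where the libraries overlapped and where leaving out replicate 1, 2 or 3 gave adjusted p of 0.174, 0.0902 and 0.501.

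The 2 cyclin E genes stood in different proportions. CCNE1 made up 86.3% ± 1.96 of summed cyclin E TPM in OVCAR3 and 86.7% ± 3.30 in OVCAR4, against 37.3% ± 3.88 in PEA1 and 37.6% ± 3.8 in PEO1 (SD, n = 3). In PEA2 the CCNE1 share was 57.0% ± 2.55, with every library above PEA1. In the OVCAR4 family it stayed between 82.9% and 89.0% in every library, although summed cyclin E averaged 97.0 scaled TPM in OVCAR4 and 190.2 in OVCAR4 ResB.

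**Figure D2:**
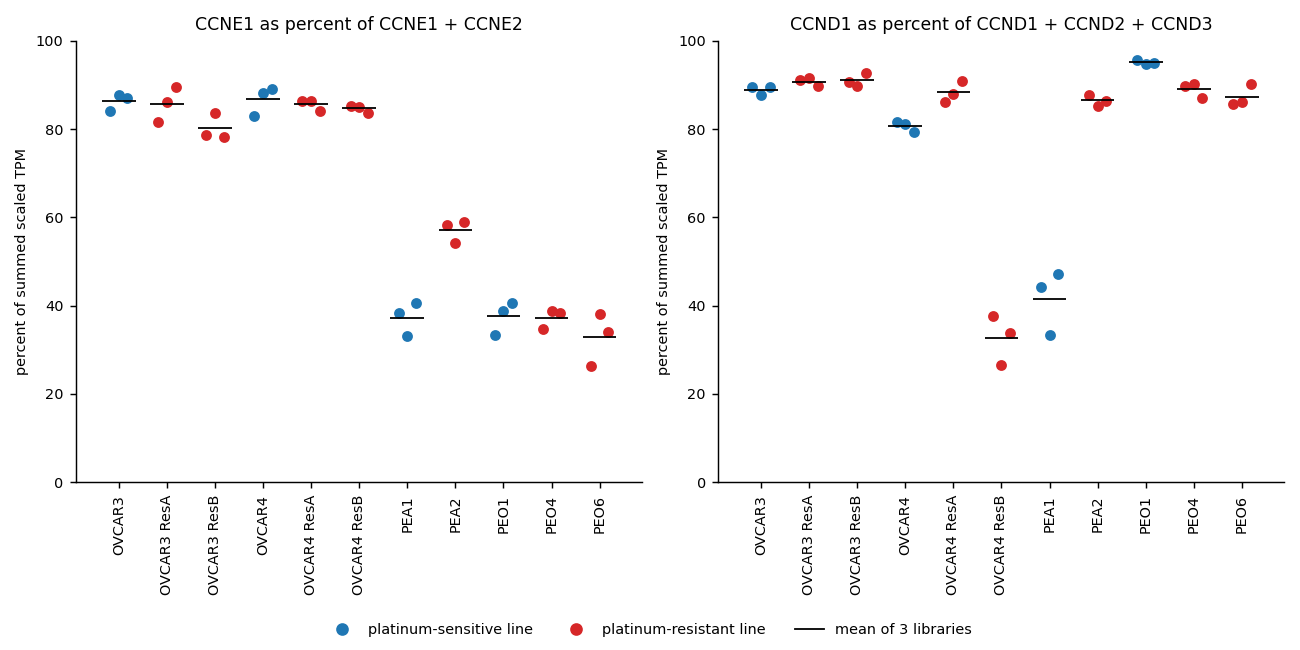
CCNE1 as a percent of CCNE1 plus CCNE2 (left) and CCND1 as a percent of CCND1 plus CCND2 plus CCND3 (right), both from scaled TPM, per library and grouped by line, with blue for sensitive lines, red for resistant lines and a bar at the mean of 3 libraries. OVCAR4 ResB at 32.6% and PEA1 at 41.6% are the 2 lines in which CCND1 averages below CCND3.

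CCND1, which encodes cyclin D1, lies at chr11:69641156-69654474 (GRCh38.p14) and was the main D-type cyclin in most lines. OVCAR4 ResB had 13.7, 10.4 and 15.1 scaled TPM, whereas OVCAR4 had 119, 109 and 98 and OVCAR4 ResA had 130.5, 162 and 201. The highest OVCAR4 ResB library lay far below the lowest library of any other line, which was 77.7 in PEO6. CCND1 was lower in OVCAR4 ResB than in OVCAR4 by 8.37-fold (log2 -3.06 ± 0.32, adjusted p = 8.54e-20) and lower than in OVCAR4 ResA (log2 -3.63 ± 0.15, adjusted p = 1.63e-123). The call against OVCAR4 ResA held under every alternative run, and the call against OVCAR4 under all but limma on log2(TPM + 1) with no filter.

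Elsewhere CCND1 rose in OVCAR3 ResA and fell in PEO6. OVCAR3 had 96.2, 94.3 and 105 scaled TPM and OVCAR3 ResA had 187, 229 and 192, with no overlap (log2 1.07 ± 0.11, adjusted p = 1.76e-21). PEO1 had 216, 177 and 244 and PEO6 had 77.7, 85.4 and 149, also with no overlap (log2 -1.12 ± 0.23, adjusted p = 8.71e-06). PEO4, at 224, 211 and 169.8, overlapped PEO1 (log2 -0.05 ± 0.19, 95% interval -0.42 to 0.32). Replicate 3 was the highest of the PEO6 libraries and still lay below the lowest of PEO1. MYEOV, a neighbour of CCND1, was called in the same direction in OVCAR3 ResA (log2 4.45) and OVCAR4 ResB (-5.93). It averaged 0.517 scaled TPM in OVCAR4 and 0.0141 in OVCAR4 ResB, close to 0 in both. Of CCND1 neighbours with an adjusted p, 1 of 6 was called higher in OVCAR3 ResA (background 18.2%) and 2 lower. In OVCAR4 ResB 1 of 5 was called lower (background 6.75%) and 0 higher. In PEO6 3 of 6 were called lower (background 15.6%) and 0 higher.

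CCND2, which encodes cyclin D2, was at or close to 0 throughout. Its highest library was replicate 3 of PEA2, with 35 counts and 0.315 scaled TPM, and it was listed at 0 in every library of OVCAR3 ResB, OVCAR4, OVCAR4 ResA and OVCAR4 ResB. A count of 0 allows up to 3 counts in a library by counting error alone. PEA2 had 7, 7 and 35 counts of CCND2 and PEA1 had 4, 3 and 2 (DESeq2 adjusted p = 0.148, but 0.0249 without the replicate block). No fold is given for CCND2 at these counts.

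CCND3, which encodes cyclin D3, stood out in PEA1. Its 3 libraries had 159, 186 and 152 scaled TPM, and no library of another line exceeded 29.7. PEA2 had 26.4, 28.3 and 18.6. CCND3 was therefore lower in PEA2 than in PEA1 by 6.73-fold (log2 -2.75 ± 0.23, adjusted p = 1.31e-31), and it was higher in PEA1 than in PEO1 by 3.92 ± 0.22 on the log2 scale (adjusted p = 1.46e-70). In the PEO family the direction was the opposite one. PEO1 had 9.77, 9.72 and 13.2 scaled TPM and PEO4 had 25.5, 23.0 and 25.2 (log2 1.17 ± 0.21, adjusted p = 1.63e-07), whereas PEO6 at 12.9, 13.8 and 16.1 gave 0.32 ± 0.26 (adjusted p = 0.325). CCND3 also rose in OVCAR3 ResA, from 11.4, 13.2 and 12.2 to 18.5, 20.8 and 22.2 (log2 0.77 ± 0.15, adjusted p = 3.77e-06). These 3 pair calls of CCND3 held under every alternative. Around CCND3 in PEO4, 6 of 9 neighbours with an adjusted p were called higher as well, among them USP49 (log2 2.04) and PRICKLE4 (1.58), where 13.7% of all tested genes were. In PEA2 3 of 9 were called lower with CCND3 (background 19.1%) and 1 higher. In OVCAR3 ResA 3 of 9 were called higher with it (background 18.2%) and 1 lower. Of genes with at least 10 counts in 3 libraries, 4010 of 15082 were lower in PEA2 and 4001 of 15338 higher in OVCAR3 ResA.

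Summed cyclin D did not follow CCND1 alone. The sum was 40.2 ± 4.27 scaled TPM in OVCAR4 ResB against 135 ± 11 in OVCAR4 (SD, n = 3), and there CCND3 supplied 67.4% of it. In PEA2 the sum was 183 ± 39.9 against 283 ± 4.10 in PEA1, while the CCND1 share went from 41.6% ± 7.25 to 86.5% ± 1.26. OVCAR3 ResA had 223 ± 23.4 against 111 ± 5.56 in OVCAR3, with CCND1 shares of 90.8% and 88.9%.

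CDK6, a kinase partner of the D-type cyclins, was called lower in 3 of the 7 resistant lines and higher in none. OVCAR3 had 19.8, 12.2 and 12.4 scaled TPM and OVCAR3 ResA had 3.87, 2.61 and 2.21, a difference of 5.06-fold (log2 -2.34 ± 0.12, adjusted p = 1.13e-85). OVCAR4 had 35.8, 16.1 and 16.9 and OVCAR4 ResB had 3.61, 4.55 and 3.98, a difference of 5.66-fold (log2 -2.50 ± 0.41, adjusted p = 3.97e-08, lost with each limma setting). PEA1 had 41.6, 33.7 and 51.0 and PEA2 had 21.1, 22.4 and 15.5 (log2 -1.07 ± 0.26, adjusted p = 0.000173). In these 3 pairs no library of the resistant line overlapped the sensitive line. The second resistant line of each selected family differed from the first. OVCAR3 ResB had 7.51, 8.13 and 16.5 and overlapped OVCAR3 (log2 -0.53 ± 0.40, adjusted p = 0.608), with the high value in replicate 3, and without that library CDK6 was called lower (-1.05, adjusted p = 0.00425). OVCAR4 ResA had 7.39, 13.9 and 19.7 (log2 -0.78 ± 0.48, adjusted p = 0.328). CDK6 in PEO4 and PEO6 averaged 18.8 ± 2.54 and 22.1 ± 0.721 against 17.3 ± 5.39 in PEO1, with log2 differences of 0.18 ± 0.21 and 0.32 ± 0.24. PEO4 was called higher without replicate 3 (0.49, adjusted p = 0.000448). Among CDK6 neighbours in OVCAR3 ResA, 4 of 7 with an adjusted p were called lower (background 19%), GATAD1 (log2 -1.13) and FAM133B (-1.01) among them. In OVCAR4 ResB 1 of 7 was called lower (background 6.75%) and 0 higher. In PEA2 2 of 8 were called lower (background 19.1%) and 2 higher. Of genes with at least 10 counts in 3 libraries, 4010 of 15082 were lower in PEA2.

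CDK2, the kinase partner of cyclin E, was highest in the OVCAR4 family. OVCAR4 had 113, 76.8 and 100.5 scaled TPM and OVCAR3 had 46.1, 29.1 and 26.8, a log2 difference of OVCAR3 from OVCAR4 of -1.59 ± 0.18 (adjusted p = 1.48e-17). CDK2 was called lower in PEO6 (32.4, 24.7 and 43.2 against 46.0, 47.7 and 59.5 in PEO1, log2 -0.68 ± 0.23, adjusted p = 0.00985) and in OVCAR3 ResA (-0.42 ± 0.15, adjusted p = 0.0138). The PEO6 call was lost without replicate 2 (-0.52, adjusted p = 0.233) and the OVCAR3 ResA call without replicate 1 (-0.22, adjusted p = 0.469) or without replicate 3 (-0.46, adjusted p = 0.0839). OVCAR3 ResB had a CDK2 difference of -0.61 ± 0.38 (adjusted p = 0.486), called without its replicate 3 (-1.06, adjusted p = 0.00289).

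CDKN2A, at chr9:21967752-21995324 (GRCh38.p14), encodes p16INK4a from one start and p14ARF from another. The gene table adds both, and with the strand setting not given in the sources used here, reads of CDKN2A and of its antisense partner CDKN2B-AS1 cannot be told apart. Both RefSeq windows of 250 bases before a start are shown, since the values cannot say which start was used. Both lie on the minus strand, and capitals again mark GC boxes. The window of the p14ARF start (chr9:21995325-21995574) holds 0 and that of the p16INK4a start (chr9:21974858-21975107) holds 1.
CDKN2A p14ARF start: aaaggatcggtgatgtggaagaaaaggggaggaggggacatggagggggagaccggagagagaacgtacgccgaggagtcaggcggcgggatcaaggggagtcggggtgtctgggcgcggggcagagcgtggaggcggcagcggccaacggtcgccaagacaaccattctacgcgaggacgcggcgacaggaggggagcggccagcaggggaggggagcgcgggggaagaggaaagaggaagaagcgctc
CDKN2A p16INK4a start: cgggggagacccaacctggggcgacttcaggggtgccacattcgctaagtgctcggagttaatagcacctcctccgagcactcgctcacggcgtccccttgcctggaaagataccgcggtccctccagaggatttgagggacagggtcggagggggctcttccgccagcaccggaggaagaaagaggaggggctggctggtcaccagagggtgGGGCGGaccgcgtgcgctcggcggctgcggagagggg

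CDKN2A was among the most abundant of the 10 genes where it was present and was at 0 in PEO1 and PEO4. OVCAR3 had 474, 866 and 962 scaled TPM, OVCAR4 had 328, 576 and 465, and PEA1 had 488, 888 and 379.9. All 3 libraries of PEO1 and all 3 of PEO4 were at 0, as were replicates 1 and 3 of PEO6, while replicate 2 of PEO6 had 61 counts and 4.41 scaled TPM. Against the floor of 3 counts per library in PEO1, CDKN2A was at least 3568-fold higher in OVCAR3, at least 2123-fold higher in OVCAR4 and at least 2780-fold higher in PEA1.

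The neighbours of CDKN2A were low in the same lines. MTAP, the nearest gene before it, was at 0 in PEO1, at 0.00356 scaled TPM in PEO4 and at 0.0627 in PEO6, and between 14.6 and 32.0 in the other 8 lines. CDKN2B, which encodes the inhibitor p15INK4b, was at 0 in PEO1 and PEO4 and at 0.0237 in PEO6, against 5.44 to 28.6 elsewhere. DMRTA1 was at 0, 0 and 0.0163 in PEO1, PEO4 and PEO6. TUSC1, farther along the chromosome, was present at 8.58, 11.1 and 21.1 in these 3 lines. Against PEO1, 6 of 6 neighbours with an adjusted p were called higher in OVCAR3 (background 24.3%) and 5 of 6 in PEA1 (20.6%). In OVCAR4 4 of 5 were called higher (22.6%) and 1 lower. Over the 11 line means, MTAP was also the gene whose level was most like that of CDKN2A among 13157 genes (Pearson r = 0.99, a description across lines that share families).

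**Figure D3:**
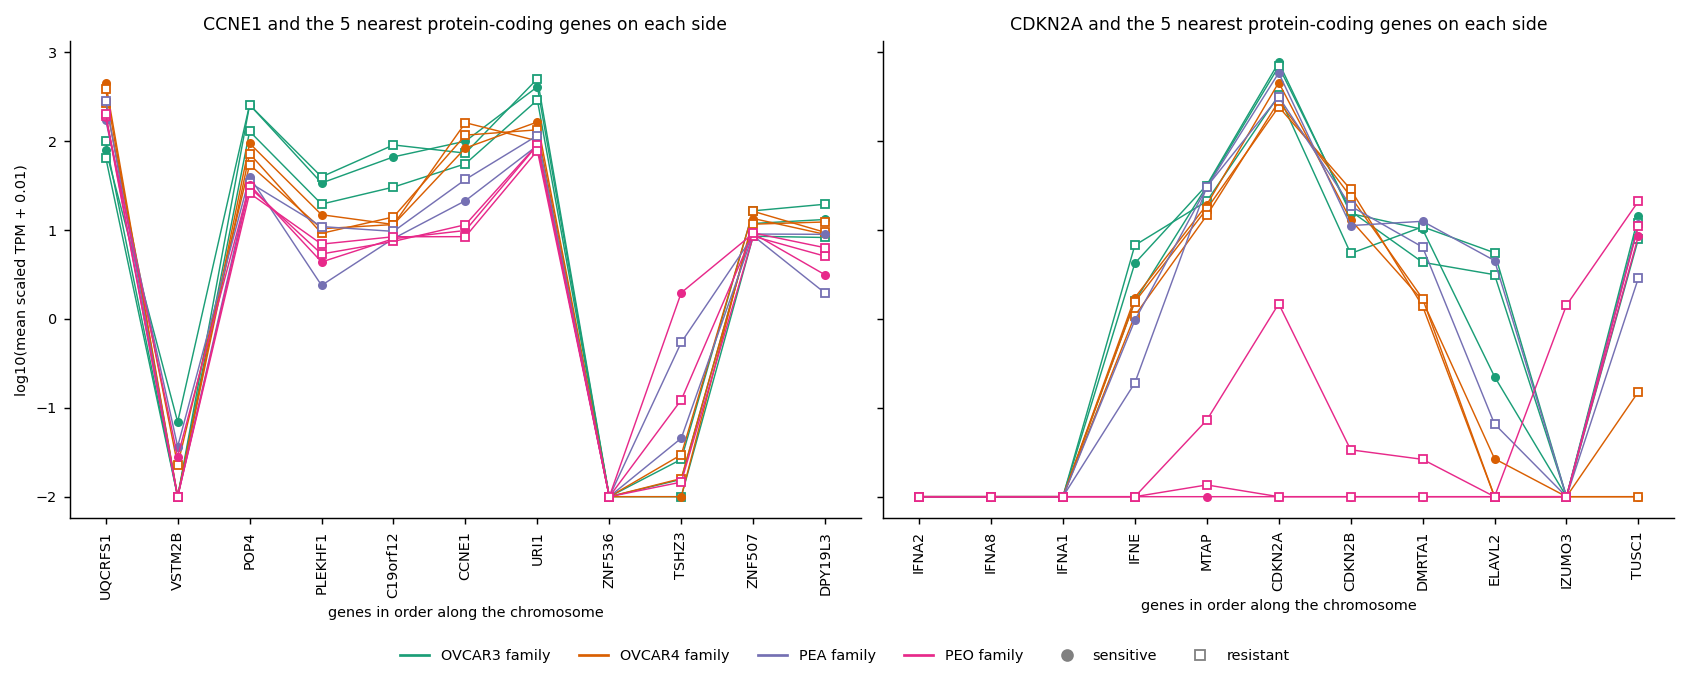
Mean scaled TPM of 3 libraries, as log10 of the mean plus 0.01 (vertical axis), for CCNE1 (left) and CDKN2A (right) with the 5 nearest protein-coding genes on each side in chromosome order (horizontal axis). Lines are coloured by family, with filled circles for sensitive and open squares for resistant lines. POP4, PLEKHF1, C19orf12 and URI1 lie highest in the OVCAR3 family, and the PEO lines lie at or near the bottom from IFNE to DMRTA1.

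CDKN2A was called lower in 2 of the 5 pairs in which it was present. OVCAR3 ResA had 269, 312 and 398 scaled TPM, all below OVCAR3 (log2 -1.12 ± 0.12, adjusted p = 4.99e-19). OVCAR3 ResB had 984, 859 and 230.1 and overlapped OVCAR3 (log2 -0.30 ± 0.45, adjusted p = 0.869). The sign of that CDKN2A difference turned without replicate 3 of OVCAR3 ResB (log2 0.47, adjusted p = 0.3). PEA2 had 257, 306 and 382, of which 382 overlapped PEA1 (log2 -0.78 ± 0.28, adjusted p = 0.0136). The OVCAR4 resistant lines had 369, 182 and 178 in ResA and 478, 172 and 189 in ResB, with log2 differences of -0.98 ± 0.40 (adjusted p = 0.0871) and -0.85 ± 0.45 (adjusted p = 0.188) and replicate 1 the highest in both. Without replicate 1 of each line CDKN2A was called lower in both OVCAR4 resistant lines (-1.49, adjusted p = 3.76e-14, and -1.46, adjusted p = 7.44e-16), and without the replicate block in OVCAR4 ResA (-0.94, adjusted p = 0.0325). The PEA2 call was lost without replicate 1 (-0.71, adjusted p = 0.212) and without replicate 2 (-0.47, adjusted p = 0.198). In one fit over all 33 libraries the CDKN2A adjusted p was 0.417 in OVCAR3 ResA and 0.583 in PEA2.

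These CDKN2A values moved with the mitochondrial rRNA share. Across the 24 libraries of the 8 lines with CDKN2A, the deviation of log2(scaled TPM + 1) from the line mean had a Pearson r of 0.94 and a Spearman rho of 0.91 with the deviation of the log2 rRNA share, and r was 0.91 without the 2 libraries farthest from the median share. In both resistant OVCAR4 lines the library high in CDKN2A, replicate 1, also had the highest rRNA share, and replicate 3 of OVCAR3 ResB, at 230.1 scaled TPM against 984 and 859, had the lowest share of all. In the other direction, r across 33 libraries was -0.81 for RB1, -0.78 for CDK2, -0.73 for CDK6, -0.61 for CCNE2 and -0.48 for CCNE1, and it was -0.05 for CCND3. The points share libraries and depth, and these are descriptions. The part of the rRNA share in any change of these genes was not tested. It overlaps the OVCAR4 pairs in particular, where the sensitive line had the higher share in replicates 2 and 3.

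**Figure D4:**
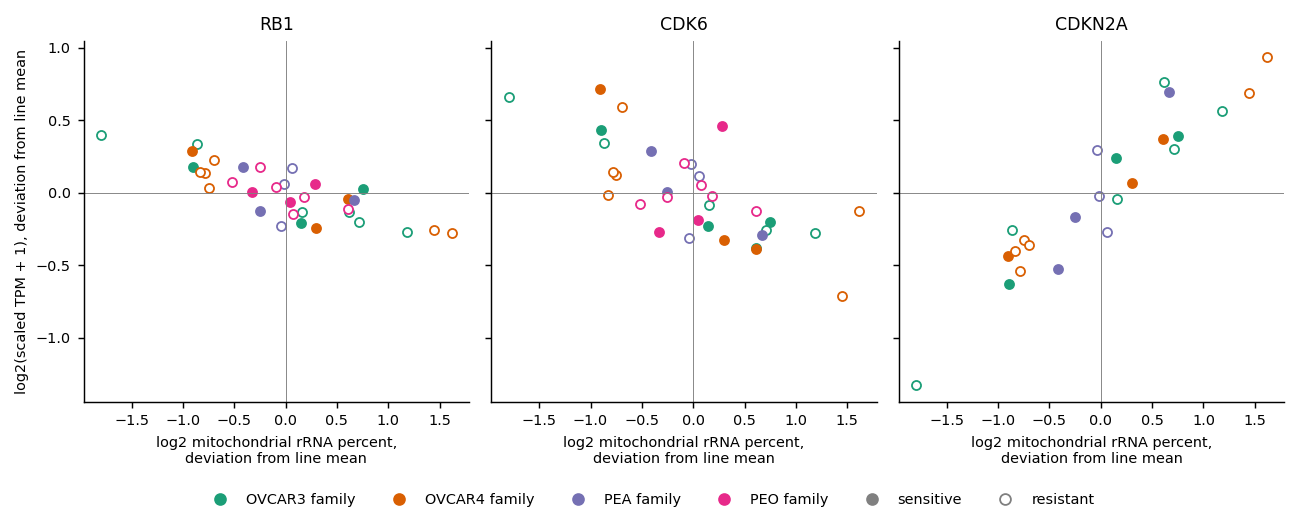
Deviation of log2(scaled TPM + 1) from the line mean (vertical axis) against the deviation of the log2 mitochondrial rRNA percent from the line mean (horizontal axis) for RB1, CDK6 and CDKN2A, one point per library, coloured by family, filled for sensitive and open for resistant lines. RB1 and CDK6 (33 libraries) decline with the share and CDKN2A (24 libraries, PEO lines left out) rises with it.

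CDKN1B, which encodes p27Kip1, had its lowest level in PEA1 and rose in PEA2. PEA1 had 23.4, 22.8 and 24.6 scaled TPM and PEA2 had 48.8, 54.4 and 45.5, with no overlap and a 2.11-fold difference (log2 1.08 ± 0.23, adjusted p = 1.51e-05). In PEA1 CDKN1B was lower than in PEO1 (log2 -1.46 ± 0.22, adjusted p = 4.09e-10). OVCAR3 ResA was called higher than OVCAR3 by 0.30 ± 0.11 (adjusted p = 0.0174), with overlapping libraries, and no CDKN1B call was left when replicate 1, 2 or 3 was dropped (adjusted p 0.271, 0.0978 and 0.0636). PEO6 averaged 88.8 ± 15.5 against 65.9 ± 15.1 in PEO1 (log2 0.41 ± 0.22, adjusted p = 0.121). Around CDKN1B in PEA2, 6 of 9 neighbours with an adjusted p were also called higher, where 18.7% of all tested genes were. In OVCAR3 ResA 3 of 9 were called higher (background 18.2%) and 1 lower. Of genes with at least 10 counts in 3 libraries, 4001 of 15338 were higher in OVCAR3 ResA.

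RB1, at chr13:48303751-48481890 (GRCh38.p14), was expressed in every library, between 7.77 and 44.1 scaled TPM. It was highest in the 2 resistant OVCAR4 lines. OVCAR4 had 25.6, 20.1 and 17.3, OVCAR4 ResA had 27.0, 33.3 and 38.1 and OVCAR4 ResB had 32.6, 43.8 and 44.1. Both resistant lines lay above OVCAR4 in every library. RB1 was called higher in OVCAR4 ResB (log2 0.93 ± 0.35, adjusted p = 0.0451) but not in OVCAR4 ResA (0.62 ± 0.34, adjusted p = 0.26, called without replicate 1 at 0.93 and adjusted p = 3.32e-05). The RB1 call in OVCAR4 ResB was lost without replicate 2 (0.81, adjusted p = 0.535), without replicate 3 (0.71, adjusted p = 0.733) and with edgeR (adjusted p = 0.114). In OVCAR3 ResA it was called higher by 0.35 ± 0.13 (adjusted p = 0.0202), lost without replicate 1 (0.28, adjusted p = 0.334) or replicate 2 (0.32, adjusted p = 0.159). The lowest levels were in PEO4, at 8.95, 8.72 and 7.77, against 10.5, 9.88 and 10.9 in PEO1, with no overlap and no call (log2 -0.27 ± 0.19, adjusted p = 0.302). PEA2 averaged 17.8 ± 2.58 and PEA1 22.3 ± 2.61, with no overlap and no call (log2 -0.31 ± 0.25, adjusted p = 0.308).

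**Figure D5:**
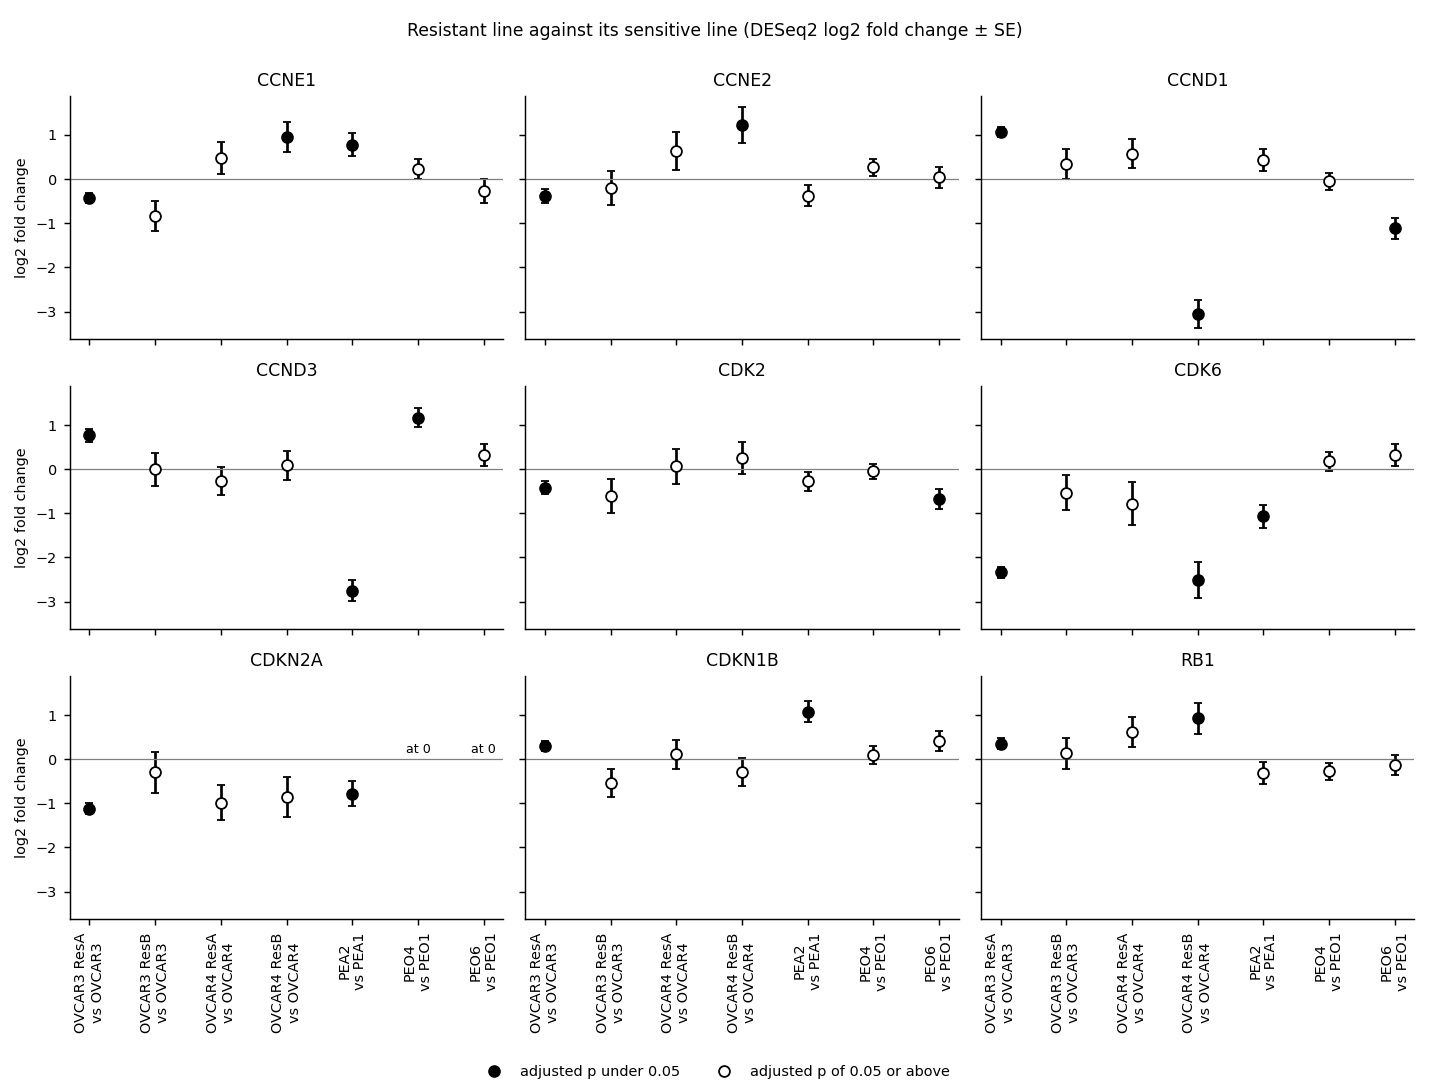
DESeq2 log2 fold change of each resistant line against its sensitive line (vertical axes, error bars ± SE) for 9 genes over the 7 pairs (horizontal axes), with filled points where the adjusted p was under 0.05. CCND2 is left out and CDKN2A is marked at 0 in the PEO pairs, where only 1 PEO6 library passed the floor, and CDK6 shows 3 filled points below 0 and none above.

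By pair, the 10 genes were called at very different rates, as were all genes. In OVCAR3 ResA 9 of 10 were called, where 37.2% of all tested genes were. Of these, 4 were higher (background 18.2%) and 5 lower (background 19%), and 6 of 10 had libraries that did not overlap, against 36.6% of all genes. In the fit without the replicate block, which called 24.9% of all genes, 4 calls were left there, and CCNE1, CCNE2, CDK2, CDKN1B and RB1 had adjusted p of 0.0615, 0.506, 0.216, 0.355 and 0.263. PEA2 had 5 calls (background 37.8%), 2 higher (18.7%) and 3 lower (19.1%), and 7 genes without overlap (background 51.9%). Summed epithelial and serous markers ran from 365 to 477 scaled TPM in PEA1 and from 3465 to 4013 in PEA2, fibroblast markers from 76.3 to 96.7 and from 0.730 to 1.12, leukocyte markers from 12.1 to 21.7 and from 52.6 to 60.1, and endothelial markers from 0.143 to 0.257 and from 6.15 to 8.44. Over all libraries CD68 reached 52.3 scaled TPM, whereas the leukocyte markers CD14, PTPRC and CD3E reached 3.91, 3.86 and 0.0595. Of the endothelial markers, PECAM1 and CDH5 reached 10.8 and 7.98. These sums thus rest on few genes and do not show the presence of a cell type. The part of these markers in the changes of the PEA2 pair was not tested. OVCAR4 ResB also had 5, with 3 higher (background 6.99%) and 2 lower (6.75%), or 13.7% in either direction, and 5 without overlap (background 34.4%), but edgeR called only CCND1 and CDK6 there. PEO4 had 1 call, CCND3 higher, where 27.6% of all genes were called, 13.7% higher and 13.9% lower, and 3 genes without overlap (background 38.9%). PEO6 had 2 calls, CCND1 and CDK2 lower, where 32% were called, 16.3% higher and 15.6% lower, and 2 genes without overlap (background 43.1%). Under limma on log2(TPM + 1) with no filter, CCND1 in PEO6 and both CDK6 and CDKN1B in PEA2 also lost their calls. Counted in either direction, the share of the 10 genes called lay above the background of all tested genes in OVCAR3 ResA, OVCAR4 ResB and PEA2. It lay below that background in PEO4 and PEO6. Of genes with at least 10 counts in 3 libraries, 53.2% were called in OVCAR3 ResA, 20.1% in OVCAR4 ResB and 52.5% in PEA2. The 5 of 10 in PEA2 lay near that share. In PEO4 and PEO6 it was 39.6% and 44.4%.

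DESeq2 called none of the 10 in OVCAR3 ResB (background 5.78%), with 1 at an unadjusted p under 0.05 (CCNE1) and 0 by edgeR, and 1 gene without overlap (background 22.1%). None was called in OVCAR4 ResA either (background 8.46%), with 1 at an unadjusted p under 0.05 (CDKN2A) and 0 by edgeR, and 3 genes without overlap (background 29.4%). Leaving out 1 library or replicate changed both counts. Without replicate 3 of OVCAR3 ResB, CCNE1, CDK2 and CDK6 were called lower there, in a fit that called 9.07% of all genes. Without replicate 1 in the OVCAR4 family, OVCAR4 ResA had 6 calls, CCNE1 (log2 0.81), CCNE2 (1.22), CCND1 (0.84), CDK2 (0.54) and RB1 (0.93) higher and CDKN2A (-1.49) lower, in a fit that called 31.5% of all genes. Over all 7 pairs, 22 of 70 gene and pair combinations were called, where 23.3% of all tested combinations were, and 5 of them held under every alternative. Of the 22, 10 were higher (background 11.7%) and 12 lower (11.6%).

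No gene was called in more than 3 of the 7 pairs. CDK6 (3 lower), CDK2 (2 lower), CDKN2A (2 lower), CDKN1B (2 higher) and RB1 (2 higher) were called in one direction each, whereas CCNE1 (2 higher, 1 lower), CCNE2 (1 and 1), CCND1 (1 and 2) and CCND3 (2 and 1) were called in both. A test of whether the resistant-sensitive difference varied between the 7 pairs, a DESeq2 likelihood ratio test over 33 libraries, called 8 of the 10 genes, where 54% of all genes were. Of genes with at least 10 counts in 3 libraries, 74.9% were called by it. On simulated data this test called more unchanged genes than its threshold allows. An edgeR quasi-likelihood test across pairs, itself not run on simulated data, called the same 8, and called 72.1% of the 17718 genes it kept. CCND3 had the lowest adjusted p (1.66e-56), followed by CCND1 (9.67e-40), CDK6 (3.21e-11) and CCNE1 (7.15e-10). CDK2 (adjusted p = 0.197) and CCND2 (0.747) were not called. Without replicate 2, CCNE2 (adjusted p = 0.434), CDKN2A (0.981) and RB1 (0.185) were no longer called, nor was CCNE2 without replicate 3 (0.0981).

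With the line as the unit, counts summed over replicates and family as a covariate, DESeq2 called 0 of the 10 genes, with 0 at an unadjusted p under 0.05 and 0 by edgeR. Of all 24668 tested genes 68 were called (0.276%). CDK6 had the lowest p, with a mean difference of the resistant lines of -0.92 ± 0.51 on the log2 scale (DESeq2 adjusted p = 0.916) and a 95% interval of -1.92 to 0.075. CCNE1 averaged 0.14 ± 0.31, with an interval of -0.47 to 0.75, and CCND1 averaged 0.07 ± 0.60, with an interval of -1.10 to 1.24.

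Resistant lines of one family differed from each other in some of these genes, with 10 of 30 combinations called in 3 comparisons (background 16.3%). Of genes with at least 10 counts in 3 libraries, 14.5% were called in the OVCAR3, 37.2% in the OVCAR4 and 19.8% in the PEO comparison. OVCAR4 ResB against OVCAR4 ResA had 7 calls (background 24.9%) and 6 genes without overlap (background 22%), with CCND1 (log2 -3.63), CDK6 (-1.69) and CDKN1B (-0.40) lower and CCNE1 (0.49), CCNE2 (0.59), CCND3 (0.36) and RB1 (0.31) higher. The same-numbered libraries of these lines deviated together, and in the fit without the replicate number as a block only CCND1 and CDK6 were called, where 9.97% of all genes were. Without replicate 2, CCNE2, CCND3, CDKN1B and RB1 were at adjusted p of 0.0783, 0.463, 0.161 and 0.466, and without replicate 3 CCND3 and CDKN1B were at 0.471 and 0.156. OVCAR3 ResB against OVCAR3 ResA had 1 call, CDK6 (1.80 ± 0.42, adjusted p = 0.000329, background 10.2%), and 4 genes without overlap (background 29.2%). Without replicate 3 of OVCAR3 ResB, CDKN2A (1.54) was called higher and CCND1 (-1.04) and CDKN1B (-0.89) lower in addition, where 17.7% of all genes were called. PEO6 against PEO4 had 2 calls, CCND1 (-1.07 ± 0.34, adjusted p = 0.0113) and CCND3 (-0.85 ± 0.31, adjusted p = 0.0337), where 14% of all genes were called, and 4 genes without overlap (background 34.6%). Without replicate 1 these were at adjusted p of 0.306 and 0.376, without replicate 2 at 0.453 and 0.491, and edgeR called neither.

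Between sensitive lines the 10 genes were called 36 times in 60 (background 44.6%), 19 higher and 17 lower, and 26 of these calls held under every alternative. Of genes with at least 10 counts in 3 libraries, between 58.7% and 66.2% were called in these comparisons. PEA1 against PEO1 had 8 of 10 (background 42.5%), OVCAR3 against PEA1 had 7 (42.7%), OVCAR4 against PEA1 and against PEO1 had 6 each (42.4% and 48.1%), OVCAR3 against OVCAR4 had 5 (44.2%) and OVCAR3 against PEO1 had 4 (48%). The calls in PEA1 against PEO1 were CCNE1 (log2 1.12), CCNE2 (1.13), CCND3 (3.92), CDK6 (1.27), CDKN2A and RB1 (1.09) higher and CCND1 (-0.86) and CDKN1B (-1.46) lower.

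Other genes of the pathway were taken from 7 lists and counted over the 7 pairs, in which 11.7% of all tested combinations were higher and 11.6% lower. CDK4 and other cyclin and kinase partners, 27 genes, had 17 higher and 34 lower calls in 189 combinations. The 6 other CDK inhibitors had 10 higher and 6 lower in 42, and the 19 pocket protein and E2F genes had 16 and 23 in 133. The 38 G1/S genes that E2F drives had 20 and 62 in 266, the 18 mitosis markers 13 and 35 in 126, the 18 regulators of cyclin D 17 and 24 in 126, and the 10 p53 target genes 12 and 15 in 70.

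PEO6 stood out in these counts. It had 0 higher and 27 lower of 38 G1/S genes, where 15.6% of all genes were lower, with a median log2 difference of -0.76 against 0.11 over all tested genes, and 0 higher and 15 lower of 18 mitosis markers, with a median of -1.0. CDC6, which loads the replicative helicase, averaged 18.8 scaled TPM in PEO6 and 63.9 in PEO1 (log2 -1.89 ± 0.24), and MKI67, the proliferation marker, averaged 14.4 and 33.1 (log2 -1.43 ± 0.26). Both were chosen after their values were seen. CCND1 and CDK2 were called lower in the same comparison, and summed mitosis markers ran from 586 to 1343 scaled TPM in PEO6 and from 1623 to 2106 in PEO1. The part of the lower proliferation markers in the changes of CCND1 and CDK2 was not tested. In PEO4 the same lists had 3 higher and 9 lower G1/S genes and 4 higher and 3 lower mitosis markers. There 13.7% of all tested genes were higher and 13.9% lower.

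OVCAR3 ResA had 5 higher and 15 lower of 38 G1/S genes, where 18.2% of all tested genes were higher and 19% lower. Its largest increase in the lists was in CDKN1A, the p53-induced inhibitor p21, at 23.5 ± 5.07 scaled TPM against 2.86 ± 1.19 in OVCAR3 (SD, n = 3, log2 3.09 ± 0.19). CCNA1, which encodes the cyclin A1 of germ cells, was its largest decrease (log2 -3.24 ± 0.35), and CCNA1 was also the largest decrease in PEO4 (-4.75 ± 0.34) and the largest increase in OVCAR4 ResA (1.69 ± 0.39). In OVCAR3 ResB the largest increase was in CRYAB, a small heat shock protein that takes part in cyclin D1 turnover, from 112 ± 29.8 to 1924 ± 461 scaled TPM (log2 4.14 ± 0.31), and CRYAB was also the largest increase in PEO6 (3.72 ± 0.24). The largest decrease in OVCAR3 ResB was in the inhibitor gene CDKN1C (-1.53 ± 0.48, adjusted p = 0.0209).

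In PEA2 the largest increase was in FOXO1 (log2 4.8 ± 0.36), a transcription factor that activates CDKN1B, and the largest decrease was in CDKN2C (-2.41 ± 0.26), which encodes the inhibitor p18INK4c. PEA2 had 10 higher and 10 lower of 38 G1/S genes and 2 higher and 10 lower of 18 mitosis markers. There 18.7% of all tested genes were higher and 19.1% lower. Of genes with at least 10 counts in 3 libraries, 52.5% were called in PEA2 in either direction. E2F3 was the largest increase in PEO4 (1.73 ± 0.17) and FOSL1, an AP-1 subunit, the largest decrease in PEO6 (-5.78 ± 0.31). OVCAR4 ResA had 5 of 10 p53 target genes lower (background 3.71%) and 0 higher, with BBC3, the apoptosis gene PUMA, the largest decrease (-3.93 ± 0.66). In OVCAR4 ResB few list genes were called, with POLA1 the largest increase (1.42 ± 0.38) and ZMAT3 the largest decrease (-1.23 ± 0.31).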

How the data were processed

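The authors prepared poly(A)-selected libraries from the cell pellets and processed the reads with the nf-core RNA-seq pipeline on GRCh38, and the submitters' notes name GRCh38 and DRAGEN. They deposited salmon expected counts per gene (not normalised, 88.4% whole) and a second table of TPM, which corrects for effective length and keeps no depth. Strand use is not given in the sources used here. Groups came from sample titles. The genes, lists and tests were chosen with earlier results of these data known.

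Expected counts were rounded and fitted in R 4.3.3 with DESeq2 1.42.0 (Wald test, line with the replicate number as a block as in the study's methods, median-of-ratios scaling, no filter, 6 libraries per comparison, adjusted p under 0.05), first tested on simulated data. Undefined adjusted p-values stayed undefined, in 6 of the 70 pair combinations. Alternatives were edgeR 4.0.16, limma 3.58.1 on log2(TPM + 1) or log2(TPM + 0.1), no block, TMM, a minimum of 10 counts in 3 libraries, all 33 libraries together, and each replicate number left out. Leaving out replicate 3 of OVCAR3 ResB, and edgeR for the test across pairs, were chosen after seeing the data. Deviations of same-numbered libraries correlated above 0.1 in all 3 numbers in OVCAR3 ResA against OVCAR3 (0.67, 0.24 and 0.46) and OVCAR4 ResB against OVCAR4 ResA (0.73, 0.55 and 0.58), and in no other comparison. The block stood in every fit because the study's methods use it, although the correlations were negative in OVCAR4 ResA (-0.44, -0.34 and -0.09) and OVCAR4 ResB (-0.47, -0.35 and -0.03) against OVCAR4. Levels above use TPM divided by factors from 0.70 to 1.32. Neighbours and promoters are from RefSeq (GRCh38.p14). Named list genes were the largest called increase and decrease in each pair whose normalised counts averaged 100 or more.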

Additional observations from a re-analysis of the deposited data

Results flagged for a closer look

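Differences between resistant lines, or between pairs, drew attention in the following genes. The resistant-sensitive difference varied between the 7 pairs (DESeq2 likelihood ratio test, adjusted p) for CCNE1 (7.15e-10), CCNE2 (0.0117), CCND1 (9.67e-40), CCND3 (1.66e-56), CDK6 (3.21e-11), CDKN2A (8.33e-05), CDKN1B (9.65e-07) and RB1 (0.000444). An edgeR quasi-likelihood test called the same 8, with adjusted p of 0.0435 for CCNE2, 0.0253 for CDKN2A and 0.0107 for RB1. The DESeq2 test called 54% of all genes, and the edgeR test 72.1% of the genes it kept.

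Within a family, the resistant lines differed in CDK6 between OVCAR3 ResB and OVCAR3 ResA (log2 1.80). OVCAR4 ResB differed from OVCAR4 ResA in CCNE1 (0.49), CCNE2 (0.59), CCND1 (-3.63), CCND3 (0.36), CDK6 (-1.69), CDKN1B (-0.40) and RB1 (0.31). PEO6 differed from PEO4 in CCND1 (-1.07) and CCND3 (-0.85). Each is a direct test between the 2 resistant lines with 3 libraries each.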

How the results depend on the processing

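No difference reversed under any alternative where it was called. The 22 calls in the pairs became 19 with edgeR, 21 with TMM, 22 with the count filter and 17 with all 33 libraries in one fit (14 of them shared), and 25 without replicate 3 of OVCAR3 ResB. With limma they were 13 on log2(TPM + 1), 13 on log2(TPM + 0.1) and 10 without a filter. Leaving out one replicate number gave 13 to 24, lowest without replicate 2. The 10 calls between resistant lines became 8 with edgeR, 9 in one fit and 13 without replicate 3 of OVCAR3 ResB, 4 with limma under each setting, and 4 to 12 with a replicate number left out. The 36 calls between sensitive lines stayed between 31 and 37. The 8 genes whose change differed between pairs were 5 to 8 with a replicate number left out, and calls with the line as the unit stayed at 0. Fits without the replicate block, which would carry any pairing by replicate number, gave 20 calls in the pairs. Of these 17 were shared, with CCNE1 in OVCAR3 ResB, CDKN2A in OVCAR4 ResA and CCND2 in PEA2 added. Over all genes, OVCAR4 ResA and OVCAR4 ResB had 1.95 and 1.68 times as many calls without the block. The same fits gave 5 calls between resistant lines, 35 between sensitive lines and 8 across pairs. Counts over all genes moved too: without replicate 1 they were 0.489 to 3.51 times as many in all 7 pairs. They were 0.116 to 0.516 times as many in 3 pairs with edgeR and 0 to 0.623 in 5 with unfiltered limma. In 4 pairs they were 0.606 to 2.57 times as many in one fit, and in 5 pairs 0.215 to 0.599 without replicate 2. The changing counts of the 10 genes are therefore not particular to these genes. Expected counts give no interval of their own, and 3 libraries per line cannot go below an exact permutation p of 0.1 for a single gene, so every call rests on spread pooled across genes. Depth limits CCND2 throughout and CDKN2A in the PEO lines.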

Other observations

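For each gene the genes with the most similar level over the 11 line means were listed among 13157 genes with a line mean of at least 5 scaled TPM, as a description over lines that share families. CCNE1 was most like RASEF (Pearson r = 0.96), PPIC (0.96) and LIMK2 (0.96), and CCNE2 was most like SLC22A4 (0.97). CCND1 had AHNAK2 (0.87) and CCND3 had SLC7A7 (0.93) as their closest genes. CDK2 was closest to UBE2D2 (0.97), CDK6 to NRSN2 (0.90), CDKN1B to C2orf15 (0.94) and RB1 to HGD (0.96). After MTAP, CDKN2A was closest to KLHL9 (0.98) and NF2 (0.98), and KLHL9 lies on the same chromosome. CCND2 was too low for a list.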
